A study of Schizosaccharomyces pombe with 12 samples.

Results

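The intergenic long noncoding RNAs (lncRNAs) of fission yeast, *Schizosaccharomyces pombe*, that reached a set level of expression were followed while cells moved from a complex to a defined, phosphate-replete medium. The members were chosen by annotation and by level: a systematic ID starting with SPNCRNA, a product description holding the word intergenic and not the word antisense, and a group average that reached 100 normalized reads at 1 or more of the 4 times. Of 6988 features in each table, 1527 are SPNCRNA features and 429 are annotated as intergenic, and 193 of these reached the level and are members. The level was read from the same averages that are followed here, so that the level is not a finding, and an RNA that is a member only through the time at which it was high had to differ between times.

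An lncRNA is a transcript without a protein-coding frame, and the annotation sets the intergenic class apart from RNAs described as antisense to a gene. In fission yeast, much of this transcription is made by RNA polymerase II and is capped and polyadenylated, and many of the products are kept low by nuclear RNA decay. A few have a known function as a process rather than as a product: transcription of an lncRNA across the promoter of the gene downstream represses that gene, which is how the phosphate-acquisition genes *pho1*, *pho84* and *tgp1* are held down in cells that have phosphate. For most of the members no function is annotated. Nor are the members free of overlap: by the RefSeq annotation of assembly ASM294v3, on which 191 were found, 82 overlapped a coding gene, 19 of them on the same strand, 132 overlapped some feature of the tables on the opposite strand, and 20 were wholly covered by such features.

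All 12 libraries held poly(A)+ RNA of strain AGP72, labelled *h-* and wild type in the study. The study's strain list, which leaves out AGP72 itself, gives its strains the markers *leu1-32*, *ura4-D18* and *his3-D1* with *ade6-m210* or *ade6-m216*. Log-phase cells in YES, a rich medium made with yeast extract, gave the 0 h samples, and the later samples were taken 2, 4 or 8 h into culture in ePMGT(+PO4), a defined medium with glutamate, thiamine and phosphate, with 3 libraries at each time that the study describes as biological replicates. No culture kept in YES to the later times was analysed here, so the medium, the handling and the time since sampling began cannot be told apart. The study compared each later time with 0 h to learn which RNAs respond to the change of medium alone.

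The values are the authors' averages of 3 libraries at each time, in reads divided by a size factor and not by transcript length. No value per library was used, and therefore no replicate error and no test stand behind any difference given here. An RNA is termed called where the averages differed 2-fold or more from 0 h and the higher average was 100 or more. All 3 comparisons use the same 0 h average, and in bulk RNA a smaller number of cells with an RNA and less of it in each cell cannot be told apart. The averages summed over all features to between 16.8 M and 17.6 M normalized reads at the 4 times. Of the genes that bear on the *h-* label, the M-cell genes *mfm2* and *mam2* averaged 730 and 107 at 0 h and *mfm1* and *mfm3* only 29.2 and 21.3, while the P-cell genes *map2* and *map3* averaged 157 and 348.

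Most members had low averages, in values not divided by transcript length. The highest average of the 4 times lay between 100 and 200 for 96 members, between 200 and 400 for 54, and at 400 or more for 43, of which 3 reached 1000. All 4 averages were at 100 or more for 142 members. Another 20 lay under 100 at 0 h, and 10 reached 100 at 0 h only. Of the 236 intergenic lncRNAs that fell short of the level, 175 had a highest average of 10 to 100, 61 stayed under 10, and 12 were listed at 0 at every time. The members nearest the limit were SPNCRNA.1088 (highest average 100.3), SPNCRNA.1556 (101) and SPNCRNA.1688 (101), and the features just below it were SPNCRNA.1216 (99.97), SPNCRNA.943 (99.6) and SPNCRNA.1327 (98.5).

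The member with the highest average in YES was SPNCRNA.863, which averaged 3945, 4775, 2365 and 1765 at 0, 2, 4 and 8 h. It was high at the first pair of times and lower at the other pair. SPNCRNA.1443 was nearly level, at 939, 907, 911 and 912. SPNCRNA.1343 averaged 912, 843, 618 and 418, a step down at each time. The RNA nc-tgp1 (SPNCRNA.1698), whose transcription represses *tgp1*, averaged 843, 883, 936 and 629. SPNCRNA.1606 averaged 809, 1545, 1486 and 1369, high at all 3 later times. These are averages per transcript, which also grow with its length, so they do not rank the members by abundance.

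As a class, the intergenic lncRNAs were lower at 8 h than in YES. In the 2, 4 and 8 h comparisons the median log2 ratio of the 193 members to 0 h was 0.03, -0.13 and -0.23, the last of these a median ratio of 0.855. Over all 5405 features that averaged 100 or more at any time the median was -0.00061, -0.0037 and 0.02, and over the 4821 coding features among them it was -0.0037, 0.00028 and 0.03. The 349 antisense lncRNAs chosen at the same level had medians of 0.05, -0.03 and -0.07, above the members at all 3 times and below the coding features at 4 and 8 h.

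The number of members below their own 0 h average grew with time. At 2 h, 91 members (47.2%) were below, where 50.1% of the 5405 features were. At 4 h the count was 120 members (62.2%), beside 50.7% of all features. At 8 h it was 132 members (68.4%), beside 46.3% of all features. The spread over all members was also wider than that over all coding features, 4451 of which had a highest average of 400 or more. At 8 h the middle 50% of members ran from -0.52 to 0.12 on the log2 scale and that of coding features from -0.13 to 0.17. Within ranges of the highest average, the 5th to 95th percentiles were wider for members only at 400 or more. At 100 to 200 they ran from -0.96 to 0.77 for members and from -0.93 to 1.06 for coding features. At 200 to 400 they ran from -0.94 to 0.59 and from -0.47 to 1.17, and at 400 or more from -1.13 to 0.95 and from -0.41 to 0.47. The middle 50% was wider for members in each range.

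**Figure D1:**
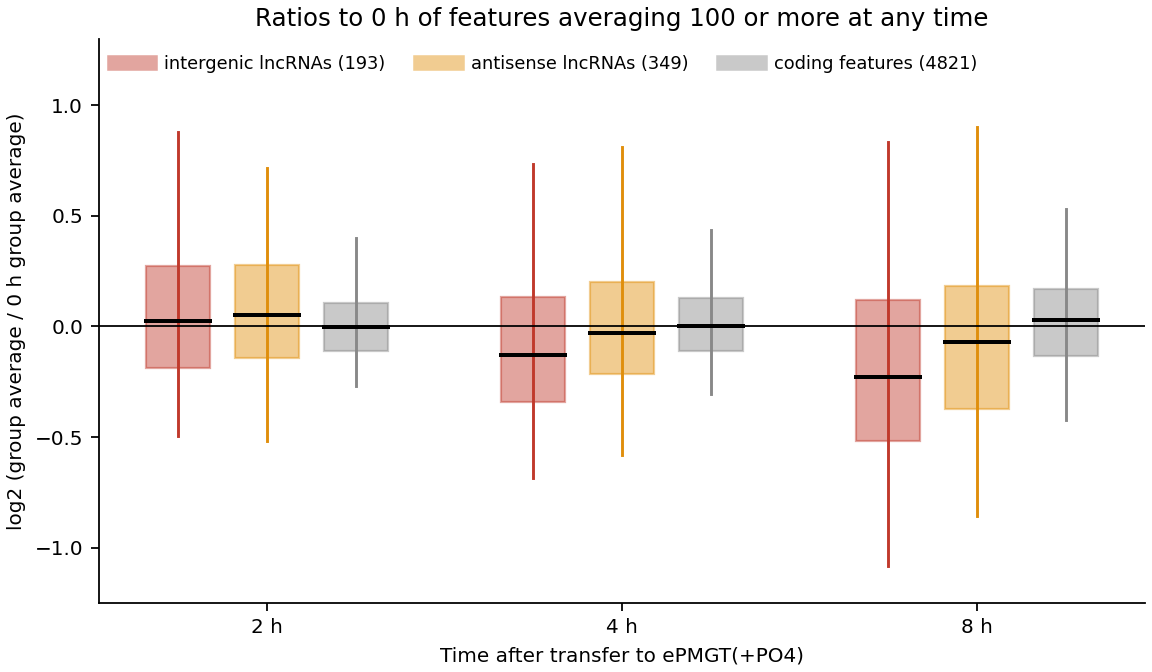
Ratio of the authors' group average at 2, 4 and 8 h to that at 0 h, on a log2 scale, for 193 intergenic lncRNAs, 349 antisense lncRNAs and 4821 coding features that averaged 100 or more at any time. Black bars are medians, boxes the middle 50% of features and thin lines the 5th to 95th percentiles (spread over features, not replicate error), and the intergenic median moves from 0.03 at 2 h to -0.23 at 8 h while the coding median is at 0.03 at 8 h.

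At each later step taken alone, most members moved to a lower average, though not always the same members. From 2 to 4 h, 146 of 193 members (75.6%) went to a lower average, with a median log2 step of -0.15, and from 4 to 8 h 123 (63.7%) did, with a median step of -0.12. For coding features the shares were 47.6% at both steps. Averages of 43 members (22.3%) were lower at every step from 0 to 8 h, a pattern found in 11.9% of all 5405 features. The reverse order, higher at every step, held for 10 members (5.18%), beside 12.3% of all features. Those 10 included SPNCRNA.935 and SPNCRNA.1431, both past 2-fold, and also SPNCRNA.995, SPNCRNA.1609 and SPNCRNA.1133, which went from 254 to 388, from 279 to 429 and from 200.1 to 361 between 0 and 8 h.

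The lower median at 8 h was seen in each range of averages. Members with a highest average of 100 to 200, 200 to 400 and 400 or more had medians of -0.25, -0.18 and -0.26 at 8 h, where coding features of the same levels had 0.09, 0.08 and 0.03. Among the 142 members at 100 or more at every time, the median at 8 h was -0.14 and 99 (69.7%) were below 0 h, beside 0.03 and 44.5% for the 4753 coding features held to the same level. The members' summed average was 51375, 57064, 51916 and 48668 at 0, 2, 4 and 8 h, or 0.303%, 0.340%, 0.294% and 0.286% of all normalized reads. Without SPNCRNA.935, the member with the largest gain, the sum was 51261 at 0 h and 44293 at 8 h.

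RNAs that mostly lack a poly(A) tail were lower at late times as well. All 19 small nucleolar RNAs (snoRNAs) that averaged 100 or more were below 0 h at 8 h, with a median log2 ratio of -0.61, after 0.10 at 2 h and -0.13 at 4 h. The 18S and 28S rRNA features that reached the level were at median log2 ratios of -1.03, -1.32 and -1.15. Their part in the members' lower averages was not tested.

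The 38 members described as a possible alternative untranslated region (UTR) of a gene had medians closer to 0 at the late times than the other 155. Their medians were 0.20, -0.06 and -0.03 at 2, 4 and 8 h, and those of the other 155 were -0.01, -0.15 and -0.31. Below 0 h at 8 h were 20 of the 38 (52.6%) and 112 of the 155 (72.3%). The only called member with that description was SPNCRNA.935. By chromosome, the median log2 ratio at 8 h was -0.21 over 85 members on chromosome I, -0.25 over 67 on II and -0.14 over 39 on III, with 60, 45 and 25 of them below 0 h.

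Few members passed 2-fold. At 2 h, 6 of 193 (3.11%) were called higher, beside 1.67% of all 5405 features, and none was called lower, beside 0.13%. In the 4 h comparison, 6 members (3.11%) were called higher, beside 1.67% of all features, and 2 (1.04%) were called lower, beside 0.222%. With averages scaled to the same sum at every time, the split at 4 h was 5 higher and 3 lower. At 8 h, 5 (2.59%) were called higher, beside 2.52%, and 13 (6.74%) were called lower, beside 0.777%. The share called higher at 8 h was thus near that of all features, while the share called lower was above it. SPNCRNA.1622, SPNCRNA.604, SPNCRNA.1431, SPNCRNA.650 and SPNCRNA.1255 lay under 100 at 0 h. They were members only through the later averages that also made their calls. In the same way SPNCRNA.720 and SPNCRNA.1409, called lower at 8 h, were members only through the 0 h average that their calls use. With members held to 100 or more at every time, 1, 2 and 1 were called higher at 2, 4 and 8 h, and 8 lower at 8 h. No share of all features is given at that limit. For antisense lncRNAs the lower calls at 8 h were 8 of 349 (2.29%), and for coding features 15 of 4821 (0.311%).

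The same 5 members were called higher at all 3 times: SPNCRNA.935, SPNCRNA.1622, SPNCRNA.604, SPNCRNA.1431 and SPNCRNA.650. These 5 (2.59%) meet the fold and average parts of the study's demand for a change at consecutive times, as did 1.63% of all features. The adjusted p-value that the study also asked for was not used. SPNCRNA.934 and SPNCRNA.720 were called lower at 4 and 8 h, which is 1.04% of members beside 0.204% of all features. Of these, SPNCRNA.720 was a member only through its 0 h average. SPNCRNA.1255 was called higher at 2 h alone, SPNCRNA.777 higher at 4 h alone, and 11 members lower at 8 h alone.

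**Figure D2:**
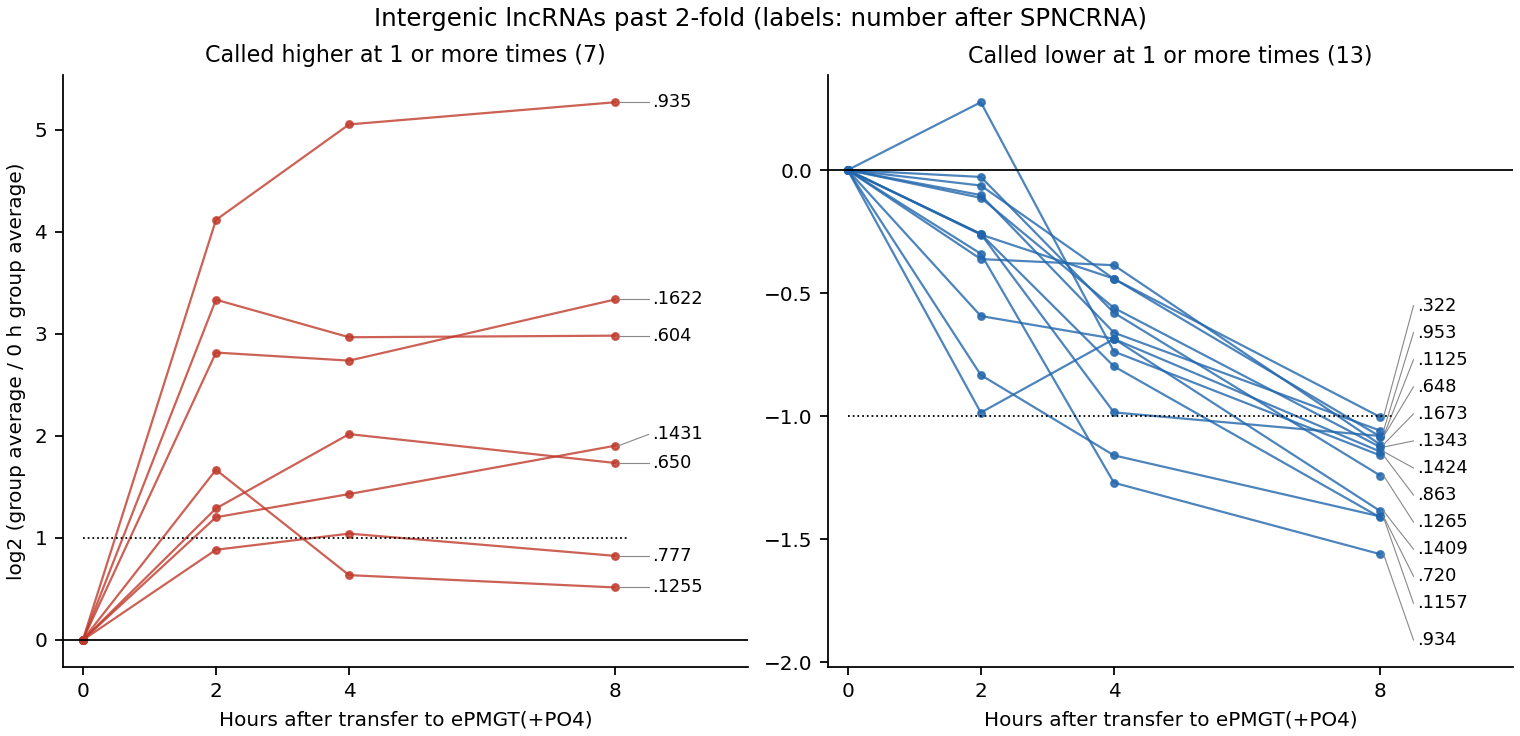
Ratio of each later group average to the 0 h average, on a log2 scale against hours after transfer, for the 7 intergenic lncRNAs called higher (left) and the 13 called lower (right) at any time; each line is 1 RNA, the dotted line is 2-fold, and no replicate error can be drawn. The higher RNAs had left their 0 h level by 2 h, with SPNCRNA.935 at 5.27 by 8 h, whereas the lower RNAs mostly went down stepwise and ended 2.01- to 2.95-fold below 0 h.

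The largest ratio of any member was that of SPNCRNA.935. It averaged 114 in YES, then 1967, 3763 and 4375, a 17.3-, 33.2- and 38.5-fold ratio to 0 h. On the opposite strand of nearly the same stretch lies SPNCRNA.934, which averaged 717, 566, 297 and 243, or 2.95-fold lower at 8 h than at 0 h. The RNA that was the lower of the pair in YES was thus the higher at every later time. The libraries were stranded, but the strand setting of the counting was not stated. Whether reads of this overlapping pair were separated by strand was not tested. The 20 members wholly covered by features on the opposite strand had highest averages of 101 to 793.

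The coding genes on either side of this pair differed from each other. SPNCRNA.935 runs toward *per1*, which encodes a plasma membrane amino acid transporter and lies downstream on the same strand. The *per1* average was 491, 1904, 2059 and 2058, a log2 ratio of 1.95 at 2 h and of 2.07 at 4 and 8 h, whereas SPNCRNA.935 went on to higher averages at 4 and 8 h. On the other side *rpl1002*, for ribosomal protein L10, averaged 12290, 10104, 11208 and 9824, a log2 ratio of -0.32 at 8 h. The antisense RNA of *rpl1002*, SPNCRNA.933, which is not a member, averaged 31.9, 178, 265 and 279.

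SPNCRNA.1622 had the next largest ratio at 8 h. It averaged 75.8, 534, 505 and 765, 10.1-fold above 0 h at 8 h. It starts next to *zrt1*, the gene for a plasma membrane zinc transporter of the ZIP family, and runs in the opposite direction, with the annotated starts overlapping. The *zrt1* average was 2573, 16685, 19183 and 26642. In log2 units the ratios were 2.82, 2.74 and 3.34 for SPNCRNA.1622 and 2.70, 2.90 and 3.37 for *zrt1*, and no other feature among the 5404 compared had a course closer to that of SPNCRNA.1622. The *zrt1* average was the larger at every time. As the strand setting is not stated, how reads in the overlap were assigned is not known. Their part in the course of SPNCRNA.1622 was not tested. The gene at its other end, *mok13*, for an alpha-1,3-glucan synthase, averaged 1223 at 0 h and 1714 at 8 h.

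SPNCRNA.604 was nearly absent in YES, at 17.9, and averaged 181, 140 and 142 at 2, 4 and 8 h. Its highest ratio, 10.1-fold, was at 2 h, and it was 7.90-fold at 8 h. It lies between *hhy1*, for a hydrolase implicated in detoxification, and *str3*, for a plasma membrane heme transporter, and all 3 are transcribed in the same direction with *str3* downstream. The *str3* average was 20.5 at 0 h and 1825, 1758 and 1546 after transfer, so that its log2 ratios (6.48, 6.42 and 6.24) were larger than those of SPNCRNA.604 (3.33, 2.97 and 2.98). *hhy1*, upstream, averaged 52.4, 108, 96.4 and 153.

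**Figure D3:**
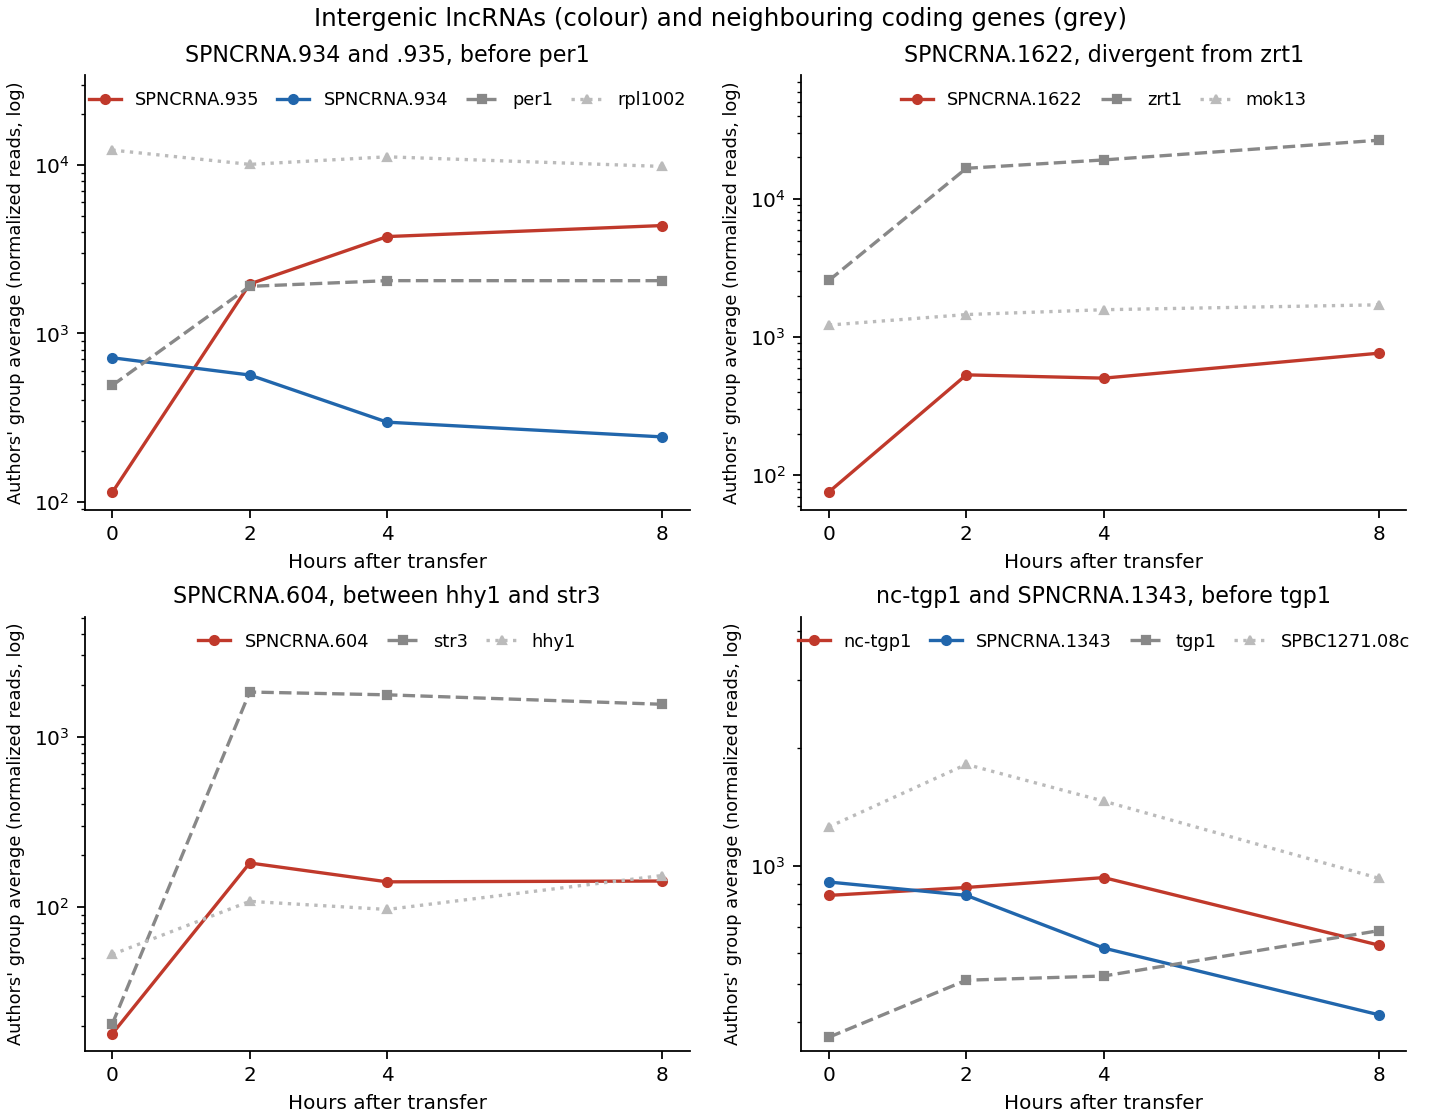
Authors' group averages (normalized reads, log axis) against hours after transfer for intergenic lncRNAs (coloured lines) and the coding genes next to them (grey lines) at 4 loci; points are averages of 3 libraries without error bars, and levels of different transcripts are not corrected for length. SPNCRNA.935 crosses SPNCRNA.934 between 0 and 2 h, SPNCRNA.1622 and *zrt1* run in parallel, SPNCRNA.604 follows *str3* with a smaller ratio, and *tgp1* goes from 366 to 685 while SPNCRNA.1343 goes from 912 to 418.

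The other members called higher had coding neighbours that were not called. SPNCRNA.1431 averaged 67.0, 154, 181 and 251, 3.74-fold at 8 h and higher at every step. Its divergent neighbour *SPBC27B12.12c*, for a CorA-family magnesium transporter, stayed between 6801 and 7375, and *tom40*, for the channel of the mitochondrial protein import complex, between 4841 and 5096. SPNCRNA.650 averaged 45.1, 110, 182 and 150.0, with its peak at 4 h. Divergent from it is *ste7*, for an arrestin-family adaptor of ubiquitin ligases, which averaged 351 at 0 h and 684 at 8 h, just under 2-fold, and *SPAC24H6.13*, for a calcium transporter, averaged 2666 and 3237.

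SPNCRNA.777 and SPNCRNA.782 lie in the same gap between *pcs2* and *hsr1* and had different courses. SPNCRNA.777 averaged 328, 606, 676 and 581, with a ratio of 2.06 at 4 h. SPNCRNA.782 averaged 313, 426, 323 and 159, higher at 2 h and the lowest at 8 h, where it was just short of 2-fold below 0 h. The coding genes beside them moved little: *hsr1*, for a DNA-binding transcription factor, averaged 2848 at 0 h and 3307 at 8 h, and *pcs2*, for a phytochelatin synthetase, 1281 and 1138. SPNCRNA.1255, the member called at 2 h alone, averaged 34.4, 109, 53.4 and 49.1, so that its call rests on a single time and on an average just above 100. SPNCRNA.782 was chosen after its values were seen.

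The 13 members called lower at 8 h lay between 2.01- and 2.95-fold below 0 h. Their median log2 ratio was -0.26 at 2 h and -0.69 at 4 h, 12 of them were below 0 h at 2 h and 13 at 4 h, and 11 were lower at every step. The exceptions were SPNCRNA.863, which was above its 0 h average at 2 h, and SPNCRNA.1424, which averaged 183, 92.6, 114 and 83.0. Since they were selected for a low ratio at 8 h, their earlier values, which share the 0 h average, describe the shape of the course only.

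The highest of these in YES, after SPNCRNA.863 and SPNCRNA.1343, was SPNCRNA.934. SPNCRNA.953 averaged 669, 624, 423 and 321, SPNCRNA.322 averaged 576, 551, 424 and 287, and SPNCRNA.648 averaged 547, 456, 403 and 258. Each was close to its YES average at 2 h and near 2-fold below it at 8 h. SPNCRNA.1673 averaged 405, 315, 310.1 and 187, and SPNCRNA.1265 averaged 278, 273, 186 and 118. The remaining members were low already in YES, at 149 for SPNCRNA.1157, 125 for SPNCRNA.1409, 124 for SPNCRNA.1125 and 116 for SPNCRNA.720, and at 8 h they lay at 55.8, 47.8, 58.4 and 43.7.

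No coding gene next to these 13 members was called lower, and few coding features were at any time (16 of 4821, 0.332%). SPNCRNA.863 lies between *cbm1*, for a protein with a cellulose-binding domain, and *SPAPB2C8.01*, for a cell surface glycoprotein. While SPNCRNA.863 was 2.23-fold lower at 8 h, *cbm1* averaged 6287 at 0 h and 10349 at 8 h, and *SPAPB2C8.01* averaged 2639 and 2170. SPNCRNA.648 starts beside *fep1*, the gene for the iron-sensing transcription factor that represses iron uptake genes, which averaged 2320 and 1860. SPNCRNA.1673 runs toward *cnp3*, for the CENP-C protein of the centromere, which averaged 7408, 8529, 7182 and 4624, a log2 ratio of -0.68 at 8 h and the lowest but for *pfl3* (-0.74), a flocculin gene divergent from SPNCRNA.322, of the neighbours of the 13.

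For 2 of the 13, a neighbouring gene was called higher. SPNCRNA.934 is divergent from *per1*, at a log2 ratio of 2.07 at 8 h. SPNCRNA.720 runs toward *SPAC22A12.17c*, for a short chain dehydrogenase, and averaged 116, 65.1, 51.9 and 43.7 while that gene averaged 104, 120.2, 139 and 284. The gene was thus called at 8 h alone and the lncRNA from 4 h on. On the other side of SPNCRNA.720, *pud1*, for a pseudouridine-5'-phosphatase, averaged 1171 at 0 h and 802 at 8 h.

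The members at the *tgp1* locus were nc-tgp1 and SPNCRNA.1343, which start beside each other and run in opposite directions. nc-tgp1 runs into *tgp1*, the gene for a plasma membrane glycerophosphodiester transporter, and transcription of nc-tgp1 is known to repress it. The *tgp1* average was 366, 512, 525 and 685, 1.87-fold at 8 h and short of a call. At the same times nc-tgp1 was at log2 ratios of 0.07, 0.15 and -0.42, and SPNCRNA.1343 at -0.11, -0.56 and -1.13. At 2 h *tgp1* was 1.40-fold above 0 h and nc-tgp1 was not below its 0 h average. Only at 8 h were both lncRNAs lower and *tgp1* higher. The part of either lncRNA in the course of *tgp1* was not tested. The annotated nc-tgp1 and *tgp1* overlap on the same strand, where reads could belong to either.

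The other lncRNAs of the phosphate genes are not annotated as intergenic and are not members. The RNA prt2, which represses *pho84*, averaged 617, 730, 722 and 601, a log2 ratio of -0.04 at 8 h. The RNA at the *pho1* locus, nc-pho1 (also called prt), averaged 85.0, 113, 90.9 and 68.7. The genes these RNAs repress were *pho84*, for an inorganic phosphate transporter, at 9592, 6426, 12391 and 16733, and *pho1*, for an extracellular acid phosphatase, at 18606, 9984, 15869 and 19242. Both genes had their lowest average at 2 h, when prt2 and nc-pho1 had their highest. At 4 h prt2 was still at 722, while *pho84*, at 12391, was above its 0 h average. A relation between these RNAs and genes was not tested. All of these ratios to 0 h were under 2-fold.

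Among lncRNAs named for mating, meiosis and telomeres, none of which is a member, several were near their YES average and others were not. The *ste11* repressor rse1 averaged 1754 at 0 h and 1834 at 8 h, the meiotic RNA sme2 averaged 82.8 and 82.7, and the telomerase RNA ter1 averaged 227 and 202. An RNA annotated as meiosis-specific, omt3, averaged 737, 906, 1289 and 1548 and was at a log2 ratio of 1.07 at 8 h. Of the meiotic genes, *mei2*, for the RNA-binding protein that starts meiosis, averaged 1359 at 0 h and 2160 at 8 h, *mei4* averaged 167 and 133, *spo5* averaged 131 and 152, and *mde2* averaged 10.5 and 12.1. Of the M-cell genes, *mfm2* averaged 730 and 1675, *mam2* 107 and 243, *mfm1* 29.2 and 53.9, and *mfm3* 21.3 and 20.7. The RNA nam3 averaged 653, 1134, 1067 and 842, with its highest average at 2 h. The RNA nam1 averaged 268, 289, 278 and 343, and nam2 averaged 263, 275, 292 and 177. At every time nam5 and nam6 were under 1.

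Of the 191 members placed on the ASM294v3 annotation, 20 had a neighbouring coding gene that was called higher at some time. Among these 20, SPNCRNA.935, SPNCRNA.1622 and SPNCRNA.604 were called higher too, and 17 were not. Several of the 17 stayed level or were lower beside transporter genes with large ratios. SPNCRNA.1443 and SPNCRNA.1442 are divergent from *isp4*, an oligopeptide transporter gene that averaged 1465 at 0 h and 9485 at 8 h. While *isp4* was at a log2 ratio of 2.69, SPNCRNA.1443 was at -0.04 and SPNCRNA.1442 at -0.76. SPNCRNA.1389 and SPNCRNA.1390 are next to *mfs3*, a spermidine transporter gene that averaged 1637 and 10127, and were at log2 ratios of -0.44 and -0.40.

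Next to genes of nitrogen and iron supply the courses were mixed. SPNCRNA.1257 averaged 288, 227, 233 and 182, below 0 h at each later time, and the divergent gene *amt1*, for an ammonium transporter, averaged 1063, 2507, 1862 and 1938. SPNCRNA.1340 averaged 158, 191, 156 and 174 beside *fet4*, for an iron and zinc transporter, which averaged 277, 413, 551 and 673. SPNCRNA.293, upstream of *abc3*, was below 0 h at 2 and 4 h and above it at 8 h. It averaged 125, 74.7, 99.2 and 158, and *abc3*, for a vacuolar heme exporter, averaged 1097, 2563, 2587 and 2786. SPNCRNA.658 was above 0 h at 2 and 4 h, the times at which the divergent gene *isu1*, for an iron-sulfur cluster scaffold, was called. The lncRNA averaged 152, 208, 234 and 148 and *isu1* averaged 4967, 10016, 10037 and 8911. In these 4 pairs the gene was called at 1 or more times and the lncRNA at none.

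A smaller ratio in the direction of the gene was seen at other loci. SPNCRNA.1606 overlaps the start of *SPBPB7E8.01*, for a predicted GPI-anchored protein, on the opposite strand. It was at log2 ratios of 0.93, 0.88 and 0.76 and the gene at 0.96, 1.51 and 1.64. SPNCRNA.995, upstream of and overlapping *SPAC27D7.11c*, a But2-family gene, was at 0.61 at 8 h and the gene at 1.63. SPNCRNA.834 has the same arrangement with *isp6*, for a vacuolar protease, and was at 0.48 where *isp6* was at 1.02. Both SPNCRNA.995 and SPNCRNA.834 are described as a possible alternative UTR. Reads in the overlap could belong to the lncRNA or to the gene. SPNCRNA.923 was the single member next to a gene called lower: it averaged 86.0, 165, 162 and 128, while *ctr5*, for a subunit of the copper transporter, averaged 2285, 1465, 1098 and 936.

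Over all members the ratio of an lncRNA bore only a weak relation to that of its neighbour. Across 367 pairs of a member and an adjacent coding gene that averaged 100 or more, Pearson's r of the log2 ratios at 8 h was 0.32 and Spearman's rho 0.24. Without the 6 pairs of SPNCRNA.935, SPNCRNA.1622 and SPNCRNA.604, r was 0.12. The pairs share genes and lncRNAs and are not independent, so these are descriptions. In 196 pairs (53.4%) both ratios lay on the same side of 0 h. By orientation, rho was 0.35 for 162 divergent pairs, 0.18 for 115 pairs with the gene downstream on the same strand, 0.19 for 69 convergent pairs and -0.13 for 21 pairs with the gene upstream on the same strand. In each orientation the median log2 ratio of the members was below that of the genes, as for divergent pairs, where it was -0.24 for the lncRNAs and 0.12 for the genes.

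**Figure D4:**
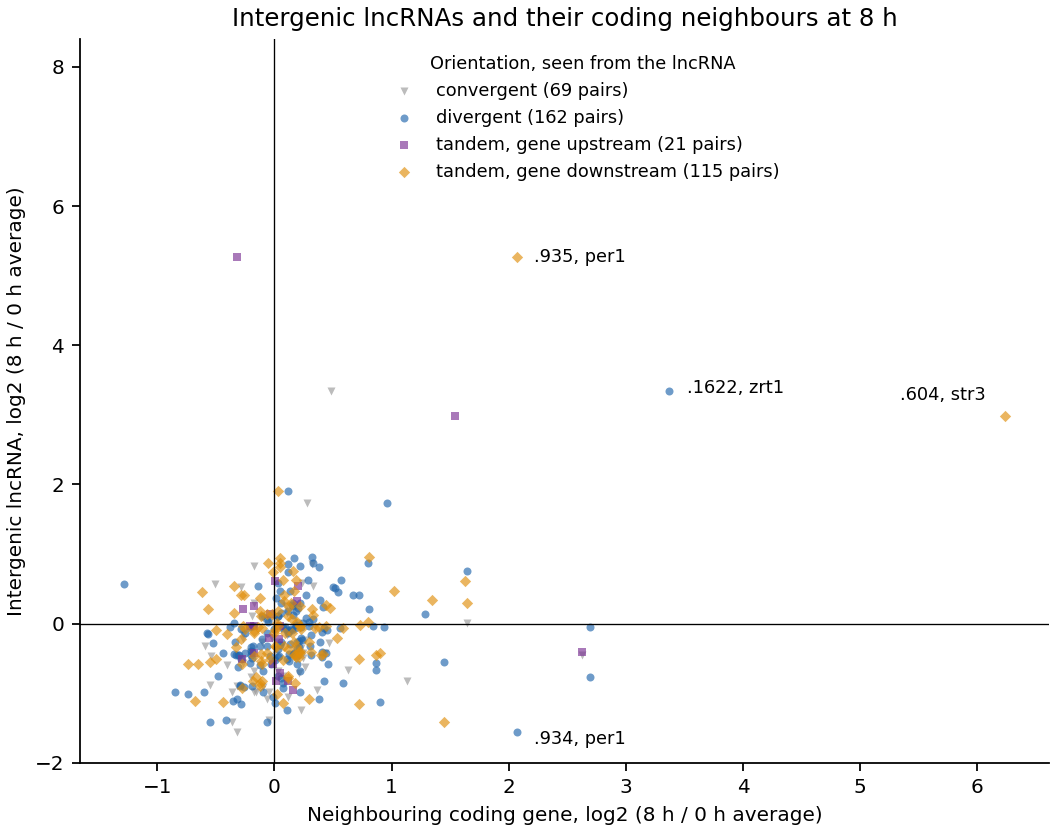
Log2 ratio of the 8 h to the 0 h average for each intergenic lncRNA (vertical axis) against that of an adjacent coding gene (horizontal axis), 367 pairs marked by orientation; each lncRNA can appear with the genes on both of its sides. Most pairs cluster near the origin and slightly below the horizontal line, SPNCRNA.1622 with *zrt1* and SPNCRNA.604 with *str3* lie at the upper right, and SPNCRNA.934 with *per1* lies at the lower right.

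For the 3 members with the largest ratios, the features with the most similar courses were sought. Likeness was the distance between log2 ratios at 2, 4 and 8 h, over 5404 other features. Nearest to SPNCRNA.935 were *alr2*, for an alanine racemase, which averaged 145, 2830, 7081 and 7311 (distance 0.700), and then *frp1*, for a ferric-chelate reductase (1.20), and *fio1*, for an iron transport oxidase (1.33). Nearest to SPNCRNA.1622 were *zrt1* (0.204), the antisense RNA SPNCRNA.933 (0.508) and the pseudogene *SPBPB21E7.08* (0.611). Nearest to SPNCRNA.604 were *uck2*, for a uracil phosphoribosyltransferase (0.364), SPNCRNA.1622 (0.668) and *zrt1* (0.750). Its own neighbour *str3* was not among the nearest 3. Each likeness is over 4 averages that share 0 h.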

How the data were processed

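Poly(A)+ RNA from 12 libraries, 3 at each of 4 times, was sequenced by the authors as paired ends with a stranded kit. Per the labels, reads were mapped with HISAT2 2.1.0 to ASM294v2, handled with SAMtools, counted with HTSeq 0.10.0 and compared with DESeq2 (no version stated). Each of the 3 deposited tables sets a later time against 0 h and holds group averages, a signal that the authors made by dividing counts by size factors and averaging 3 libraries. The files give no depth per library, and the study states only a range over all its libraries, so no interval was computed. The tables' fold changes, standard errors, p-values and mean over all libraries are the authors' own comparison and were not used. Since values per library were not used either, the count test foreseen for that case was not run, and ratios of averages are given without tests.

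Members had an average of 100 or more at any time, and calls needed a 2-fold ratio with 100 or more in the higher average. The calling step was tested on simulated averages with changes larger than the limit and a small spread between libraries. That test does not bear on ratios near 2-fold. Coding genes nearest by midpoint on each side, and their directions, came from the RefSeq annotation of ASM294v3. As that is not the authors' build, no coordinates, lengths, sequences or levels per kilobase are given. Python 3.11.15, pandas 2.3.3, numpy 2.4.6 and matplotlib 3.10.9 were used.

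The members and lists were chosen with earlier results of these data known. Named were every called member, the 5 highest averages, the 3 members just inside and 3 features just outside the level, lncRNAs tied to phosphate genes, mating, meiosis, telomeres or centromeres, the coding neighbours of members called at consecutive times, and the 3 features most like each of the 3 members with the largest ratio at 8 h. Other neighbours, and the uncalled members beside a called gene, were named after their values were seen.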

Additional observations from a re-analysis of the deposited data

How the results depend on the processing

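The counts of called members depend on the limits set for a call. With a fold of 1.5, 16, 12 and 17 members were called higher and 7, 15 and 39 lower at 2, 4 and 8 h, and 11 higher and 15 lower at consecutive times. With 200 or more in the higher average, 2, 3 and 3 were called higher, 1 and 8 lower at 4 and 8 h, and 2 higher and 1 lower at consecutive times. With members held to 100 or more at every time, which leaves 142, 1, 2 and 1 were called higher, 1 and 8 lower at 4 and 8 h, and 1 higher and 1 lower at consecutive times. These limits remove or add members by construction. No share of all features under the same limits is given, so these counts are not set against one. With a neighbour's fold of 1.5, 6 in place of 3 called members had a neighbour called in the same direction. The other 61 of 84 alternative values stayed within 1.5 times the count given, or within 0.1 log2 of the median given: among them a pseudocount of 10 kept 30 of the 32 calls summed over the 3 comparisons, equal column sums kept 31 and added 1, and setting the coding median to 1 kept all 32 and added 4.

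No paired analysis was possible because the values used are averages over the 3 libraries of a group, and leaving out each library in turn was not run for the same reason. Spread between cultures, and the counting error of members near an average of 100, are therefore unknown, and ratios near 2-fold, such as those of the members called lower at 8 h, have no error beside them.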

Other observations

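Several members came close to 2-fold without being called. SPNCRNA.737, which lies between the kinase gene *fin1* and the cyclin gene *pas1*, averaged 180, 352, 358 and 262 at 0, 2, 4 and 8 h. SPNCRNA.1115, described as a possible alternative UTR, was below 0 h at 2 h and above it at 8 h, at 235, 171, 216 and 459, while the gene downstream on the same strand, *SPCC1235.01*, averaged 16699 at 0 h and 29181 at 8 h.

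On the lower side, SPNCRNA.1358 averaged 434, 405, 252 and 219. It overlaps both of its neighbouring genes, which lie on the opposite strand. One is *eca39*, for a branched chain amino acid aminotransferase, which averaged 28228 and 15702 at 0 and 8 h. The other is *pho4*, for the thiamine-repressible acid phosphatase, which averaged 3110 and 2418. SPNCRNA.1285 averaged 260, 148, 136 and 132, with most of the difference present by 2 h, unlike the stepwise course of most members called lower. These RNAs were chosen after their values were seen.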
